A study of Mus musculus with 4 samples.

Results

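The 7 genes described here are Exoc3l4, Gm266, Arhgef10l, Rdh10, Nln, Hdgfl3 and Gm525, which stood beside Dtx1 among the transcripts higher in thymocytes of autonomous thymi. They were taken as named rows from 31053 genes in the tables, and because they were chosen on the difference between the libraries, that difference is given as a description. Wild type mouse thymi were transplanted and thymocytes were taken 28 days later in 2 conditions, autonomy and turnover. Per the labels, the sorted cells were DN3-DN4, ISP and double positive (DP) thymocytes, and 1 5′ gene expression library with matched V(D)J contigs was made per condition. The sources used here do not give the host strain, its genotype or the number of pooled animals. No value below has a replicate check, and its intervals cover counting error only.

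Thymus autonomy is the state in which a thymus that receives no fresh progenitors maintains T cell production from cells already inside it, whereas in turnover incoming progenitors replace the resident ones. During normal development a thymocyte rearranges its T cell receptor beta (TRB) genes, tests the product through the pre-TCR, which contains the pre-TCR alpha chain encoded by Ptcra, and then divides and becomes DP. Notch signals act before and during that step and decline afterwards, and Dtx1 encodes Deltex1, a ubiquitin ligase that is a Notch target in thymocytes. Among the 7 genes, Exoc3l4 encodes a protein related to the exocyst subunit Exoc3, and Arhgef10l a guanine nucleotide exchange factor. Rdh10 oxidises retinol to retinal on the way to retinoic acid. Nln encodes neurolysin, a metallopeptidase that cleaves short peptides such as neurotensin. Hdgfl3 belongs to the hepatoma-derived growth factor family of PWWP-domain proteins. No role is given for Gm266 or Gm525, which carry gene model names.

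After barcodes under 1000 UMIs (unique molecules) were left out, the autonomy library held 4414 cells with a median of 2430.5 UMIs, and the turnover library 4227 cells with a median of 2112 UMIs. The libraries shared 29 barcode sequences. In the autonomy library 1781 cells had Xist UMIs without a Y-linked UMI, 934 had the reverse and 25 had both. In the turnover library 2459 cells had a Y-linked UMI and no cell had a Xist UMI. Condition, source animals and library preparation cannot be told apart. Resting DP-like clusters were named by their Rag1 and Cd8a levels, which therefore cannot check the sort label, and these clusters also carried Cd4. Il2ra-high cells were 9 in autonomy and 121 in turnover.

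Several of the 7 genes differed between cells that carried different TRB rearrangements, and the chains that those results turn on are shown first. The deposited CDR3 sequences of clones 6, 9 and 20 began 8 bases upstream of the usual V segment start, and that of clone 12 ended 1 base short of the usual J end. Clones are numbered by size among autonomy cells. Sequences run 5′ to 3′ on the coding strand of the rearranged locus on chromosome 6, and capitals mark the usual start where the deposited sequence lies upstream of it. Clone 5 and clone 13 are shown as clones with a usual CDR3 and high Gm525, and the last sequence, deposited as not productive, also began 8 bases upstream of the usual start.
Clone 6, TRBV13-1 with TRBJ2-4: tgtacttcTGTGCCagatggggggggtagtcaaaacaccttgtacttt
Clone 9, TRBV13-1 with TRBJ1-5: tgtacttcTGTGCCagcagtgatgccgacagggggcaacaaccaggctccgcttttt
Clone 12, TRBV13-1 with TRBJ1-5: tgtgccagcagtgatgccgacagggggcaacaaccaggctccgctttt
Clone 20, TRBV13-2 with TRBJ2-7: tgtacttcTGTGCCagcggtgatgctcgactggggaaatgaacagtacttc
Clone 5, TRBV19 with TRBJ2-4: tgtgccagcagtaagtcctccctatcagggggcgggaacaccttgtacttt
Clone 13, TRBV3 with TRBJ2-5: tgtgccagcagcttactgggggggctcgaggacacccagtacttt
Unproductive chain, TRBV4 with TRBJ2-3: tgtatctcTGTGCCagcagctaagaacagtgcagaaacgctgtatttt
Counted from the usual start, the CDR3 of clone 6 measured 40 bases, that of clone 9 measured 49 and that of clone 20 measured 43. The unproductive TRBV4 chain measured 40. None of these is a multiple of 3, by construction, because the deposited lengths are multiples of 3 and the offset is 8 bases. Clones 9 and 12 carried the same rearrangement read with different ends, and clone 12 measured 48 bases without its last base. Contigs of these forms, called shifted here, made up 259 of 3563 productive TRB contigs in autonomy (7.27%, exact binomial interval 6.44 to 8.17%) and 32 of 4093 in turnover (0.782%, 0.535 to 1.10%).

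Over all kept cells, Exoc3l4 and Gm266 were detected in the autonomy library and not in the turnover library. Exoc3l4 had 258 UMIs in autonomy, or 15.9 UMIs per 1000000 of the library (CPM, exact Poisson interval 14.0 to 17.9), and 0 UMIs in turnover. Gm266 had 504 UMIs, or 31.0 CPM (28.4 to 33.8), in autonomy and 0 UMIs in turnover. Against a floor of 3 counts in the turnover library, the ratio was at least 106 for Exoc3l4 and at least 207 for Gm266. Neither gene had a UMI in any of 4227 turnover cells. The floor of 3 counts corresponds to 0.0710% of these cells, and the exact binomial interval reaches 0.0872%.

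Arhgef10l had 608 UMIs (37.4 CPM) in autonomy and 19 UMIs (0.947 CPM) in turnover, a ratio of 39.5 (conditional exact interval 25.1 to 66.0). Rdh10 had 530 UMIs (32.6 CPM) in autonomy and 46 UMIs (2.29 CPM) in turnover, a ratio of 14.2 (10.5 to 19.7). Nln had 518 UMIs (31.9 CPM) in autonomy and 106 UMIs (5.29 CPM) in turnover, a ratio of 6.03 (4.88 to 7.50). These genes were thus present at low levels in turnover cells. Hdgfl3 had 2628 UMIs (162 CPM) in autonomy and 342 UMIs (17.1 CPM) in turnover, a ratio of 9.48 (8.47 to 10.6). Gm525 had 6728 UMIs (414 CPM) in autonomy and 1280 UMIs (63.8 CPM) in turnover, a ratio of 6.48 (6.11 to 6.89). Dtx1, for comparison, had 3973 UMIs (244 CPM) in autonomy and 73 UMIs (3.64 CPM) in turnover, a ratio of 67.1 (53.3 to 85.8). Of 9913 genes with at least 100 UMIs, 14.3% were at least 2-fold and 1.71% at least 5-fold higher in autonomy, and 7 of 7 chosen genes passed both folds, as their choice fixed. The median log2 ratio was 0.29 over all genes, and 3.83 over the 7 genes with Exoc3l4 and Gm266 at their bounds.

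The genes differed in how their UMIs were spread over cells. Exoc3l4 UMIs were found in 149 autonomy cells (3.38%), with up to 11 UMIs in a cell, and the 1% of cells with most held 57.4% of its UMIs. Gm266 UMIs were found in 245 autonomy cells (5.55%), and the 1% of cells with most held 40.9% of them. Hdgfl3 was the most widely detected of the 7 in autonomy, with UMIs in 1585 autonomy cells (35.9%) and 260 turnover cells (6.15%), and the 1% of autonomy cells with most held 10.5% of its UMIs. Gm525 was detected in 1420 autonomy cells (32.2%) and 695 turnover cells (16.4%), and single cells reached 32 UMIs in autonomy and 27 in turnover. After each cell was thinned to 1000 UMIs, Hdgfl3 was detected in 16.5% of autonomy and 1.28% of turnover cells, and Gm525 in 23.2% and 6.13%. Exoc3l4 was then detected in 1.43% and Gm266 in 2.38% of autonomy cells.

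At least 1 of the 7 genes had a UMI in 2637 of 4414 autonomy cells (59.7%, 58.3 to 61.2%) and in 950 of 4227 turnover cells (22.5%). At least 3 of them had UMIs in 488 autonomy cells (11.1%) and 22 turnover cells (0.521%). No turnover cell had more than 4 of the 7 genes, whereas 75 autonomy cells had at least 5 and single cells reached 6. Thinned to equal depth, 40.3% of autonomy and 7.95% of turnover cells had a UMI of at least 1 of the genes.

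The stage at which the genes were detected was followed in clusters built without the 7 genes or Dtx1. Class names with "-like" come from marker lists, and the other names from leading genes. A Ptcra-high resting cluster held 566 autonomy and 13 turnover cells. Arhgef10l, Exoc3l4, Dtx1, Gm266, Rdh10, Nln and Gm525 were among its 10 leading genes by fold over all other cells of both libraries. Nearly all its cells came from autonomy, and the genes were chosen on the library difference, so this ranking was favoured in advance. At least 1 of the 7 genes had a UMI in 504 of the cluster's 566 autonomy cells (89.0%), and at least 3 in 214 (37.8%). No Ptcra-high cluster was found at a clustering resolution of 0.5, and at a resolution of 2 it held 591 autonomy and 11 turnover cells. Since the clusters were built from these cells, differences between them are a description.

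In autonomy, Arhgef10l reached 190 CPM (168 to 214) in the Ptcra-high cluster, 30.9 CPM in cycling cells, 22.8 CPM in resting DP-like cells and 4.24 CPM in post-selection-like cells. Exoc3l4 reached 73.9 CPM (60.5 to 89.3) in the Ptcra-high cluster, 25.5 CPM in cycling cells and 5.37 CPM (3.68 to 7.59) in resting DP-like cells. The Ptcra-high cluster held 41.5% of all Exoc3l4 UMIs and 45.2% of all Arhgef10l UMIs of the library. Gm266 reached 106 CPM in the Ptcra-high cluster, 40.4 CPM in cycling cells, 45.3 CPM in interferon-led resting cells and 22.8 CPM in resting DP-like cells. Rdh10 took another order, with 111 CPM in Ptcra-high, 44.3 CPM in resting DP-like and 11.8 CPM in cycling cells. Nln measured 115 CPM in Ptcra-high, 66.2 CPM in interferon-led, 25.2 CPM in resting DP-like and 23.8 CPM in cycling cells. Hdgfl3 measured 406 CPM in Ptcra-high, 198 CPM in resting DP-like and 113 CPM in cycling cells. Gm525 measured 1209 CPM in Ptcra-high, 509 CPM in resting DP-like and 293 CPM in cycling cells. Hence Exoc3l4, Gm266 and Arhgef10l stood higher in cycling than in resting DP-like autonomy cells, and Rdh10, Hdgfl3 and Gm525 lower, while Nln was nearly level between these classes. Cycling autonomy cells came mostly from a cluster of 150 autonomy and 0 turnover cells, so the cycling classes of the libraries were made of different clusters.

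In turnover, Rdh10 measured 3.77 CPM in resting DP-like cells and 1.03 CPM in cycling cells. Gm525 measured 117 CPM in resting DP-like cells, 43.6 CPM in cycling cells and 46.6 CPM in Il2ra-high cells. The turnover Arhgef10l UMIs lay mostly in the Il2ra-high cells, which held 16 of 19 (16.6 CPM), and resting DP-like turnover cells had none. In the Il2ra-high turnover cells Hdgfl3 measured 22.8 CPM, Nln 12.4 CPM, Rdh10 8.28 CPM and Dtx1 27.9 CPM, and Exoc3l4 and Gm266 had no UMI. Free RNA can add UMIs to any droplet, so mature single positive (SP)-like cells served as the comparison class. Among 162 mature SP-like autonomy cells with a median of 9570 UMIs, Exoc3l4, Gm266 and Arhgef10l had no UMI. By the floor of 3 counts this allows a share of up to 1.85% for each. Gm525 measured 10.5 CPM and was detected in 3.09% of these cells, and Hdgfl3 measured 29.1 CPM and was detected in 24.1% of them. Dtx1 measured 135 CPM there, so mature SP-like autonomy cells had Dtx1 UMIs without those of Exoc3l4, Gm266 or Arhgef10l. For Hdgfl3, the unthinned share of 32.8% in resting DP-like autonomy cells, whose median depth was 2228 UMIs, therefore stood near the 24.1% of the deeper mature cells, while the CPM of 198 stood above 29.1. Likewise Nln was detected in 5.29% of resting DP-like and 6.79% of mature SP-like autonomy cells, at 25.2 and 7.43 CPM, so no order was read from these unthinned shares.

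**Figure D1:**
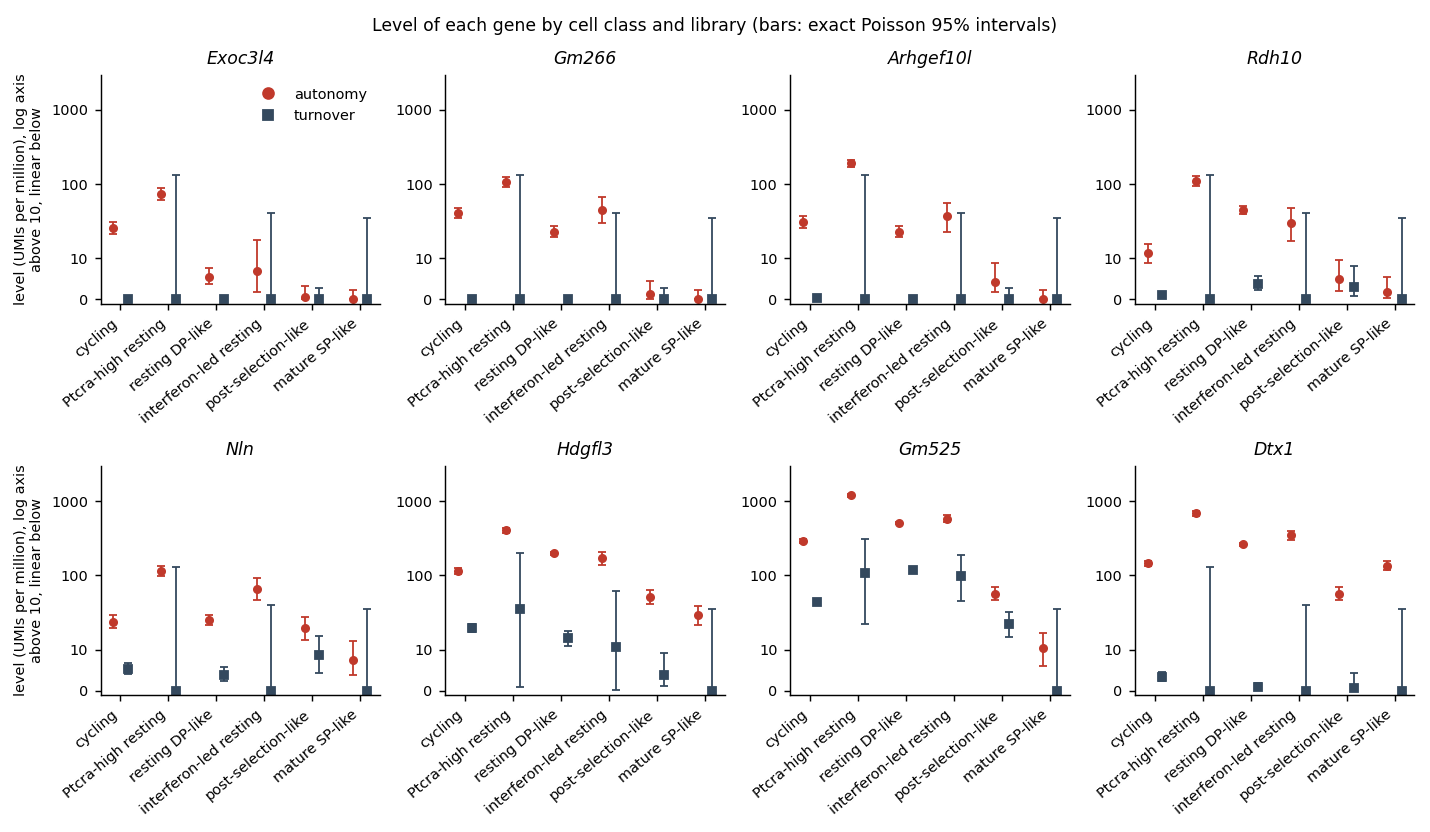
Level of each of the 7 genes and Dtx1 in CPM (log axis above 10, linear below) by cell class, with autonomy as red circles and turnover as dark squares, and exact Poisson 95% intervals as bars. In autonomy each gene is highest in the Ptcra-high resting cluster, which held 13 turnover cells and has wide turnover intervals, and Exoc3l4, Gm266 and Arhgef10l lie at 0 in mature SP-like cells.

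Resting cells were next pooled (the resting DP-like, Ptcra-high, interferon-led and Lypd1-led classes), and 3390 autonomy cells gave Arhgef10l 442 UMIs (53.4 CPM) and resting turnover cells gave 0, at least 106-fold higher. The ratio of Hdgfl3 was 16.4 (13.2 to 20.6), with 233 CPM in autonomy and 14.3 CPM in turnover resting cells. The ratio of Nln was 11.6, with 42.8 CPM in autonomy and 3.69 CPM in turnover. The ratio of Gm525 was 5.35 (4.94 to 5.80), with 624 CPM in autonomy and 117 CPM in turnover. The resting classes of the libraries were made of different clusters, as the Ptcra-high cluster held 566 autonomy and 13 turnover cells, the interferon-led one 200 and 38 and the Lypd1-led one 127 and 1. Within resting DP-like cells alone, 2497 in autonomy and 2866 in turnover, the ratio was 13.9 (11.1 to 17.6) for Hdgfl3, 11.8 (7.61 to 19.1) for Rdh10, 6.68 (4.26 to 10.99) for Nln and 4.35 (4.0 to 4.73) for Gm525. Against the floor of 3 counts it was at least 44.4 for Arhgef10l and Gm266, which had 136 UMIs each in autonomy, and at least 10.5 for Exoc3l4, which had 32. Among 8482 genes with at least 100 UMIs in resting cells, 9.11% were at least 2-fold and 0.731% at least 5-fold higher in autonomy, and 7 of 7 chosen genes passed both folds.

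Within the autonomy library, resting cells were compared by their TRB chains. The genes were chosen on the library difference, which can favour genes high in cells found mostly in autonomy, such as the Ptcra-high cluster. The contrast by TRB chain is thus not independent of that choice and is a description. Each of the 7 genes was higher in resting cells without a usual productive TRB chain than in those with one. The share of all genes with this direction was not computed, so the count is not shown to be particular to these genes. The 3390 resting cells comprised 193 with no TRB contig, 802 with TRB contigs but none deposited as productive, 174 with shifted productive contigs and no usual one, and 2221 with a usual productive CDR3. Median depth was 1878, 2286, 2358 and 2306 UMIs in the same order. Exoc3l4 measured 72.6 CPM in cells with no TRB contig, 34.8 CPM (27.0 to 44.1) with none productive, 48.8 CPM (30.2 to 74.6) with shifted chains and 5.24 CPM (3.51 to 7.52) with a usual productive CDR3. Gm266 measured 109 CPM with no TRB contig, 93.7 CPM (80.6 to 108) with none productive, 20.9 CPM (9.57 to 39.7) with shifted chains and 15.4 CPM (12.3 to 19.0) with a usual productive CDR3. Cells with shifted chains thus measured near the unproductive cells in Exoc3l4, whereas in Gm266 their interval overlapped that of the cells with usual chains. Over all classes, clones 6, 9, 12 and 20 held 165 of the 212 shifted-chain cells and 56 of their 57 Exoc3l4 UMIs. The values with shifted chains thus describe few clones, whose cells are not replicates. Arhgef10l measured 123, 120, 105 and 21.5 CPM over the same states, and Rdh10 measured 112, 112, 99.95 and 26.6 CPM. Nln measured 69.8, 77.3, 62.8 and 27.3 CPM, Hdgfl3 399, 331, 293 and 183 CPM, and Gm525 1301, 1089, 837 and 399 CPM. For these genes the cells with shifted chains lay nearer to the unproductive cells than to those with a usual chain.

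Thinning to equal depth left the same order between unproductive and usual productive resting cells. Gm266 was detected in 6.61% of resting cells with none productive and 0.946% of those with a usual productive CDR3, and Gm525 in 42.5% and 18.1%. Exoc3l4 was detected in 3.12% and 0.405%, Arhgef10l in 9.48% and 2.12%, and Rdh10 in 10.5% and 2.39%. The difference was smaller for Nln, at 4.74% and 2.39%, and for Hdgfl3, at 24.2% and 16.1%. Dtx1 itself measured 478 CPM in resting cells with none productive and 292 CPM in those with a usual productive CDR3. Ptcra measured 823 and 360 CPM in the same states, and the part of stage, marked by Ptcra, in these differences was not tested. A productive TRA chain was found in 37.2% (33.8 to 40.6%) of resting cells with none productive and 39.98% (37.9 to 42.1%) of those with a usual productive CDR3, and these intervals overlapped.

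Cycling autonomy cells were compared in the same way. Gm266 measured 71.4 CPM in 87 cycling cells with none productive and 18.7 CPM in 137 with a usual productive CDR3. Arhgef10l measured 52.8 and 14.2 CPM in these cells, and Hdgfl3 155 and 76.6 CPM. Nln measured 25.6 CPM (17.6 to 36.0) and 19.98 CPM (14.7 to 26.5), with intervals that overlapped. Rdh10 measured 19.4 CPM (12.6 to 28.7) and 4.16 CPM (1.996 to 7.66), whereas after thinning it was detected in 1.15% and 1.46% of these few cells. In 31 cycling cells with shifted chains Exoc3l4 measured 66.7 CPM, Gm266 64.7 CPM and Rdh10 29.4 CPM. This Gm266 level came from 33 UMIs in 7 cells. Its interval (44.55 to 90.89) lay above that of cycling cells with a usual productive CDR3 (13.66 to 25.06). In resting cells with shifted chains, Gm266 had 9 UMIs and the corresponding intervals overlapped. Over all autonomy cells, the contrast for Exoc3l4 moved with how the shifted chains were called. With the productive calls as deposited, Exoc3l4 was 3.77-fold higher (2.93 to 4.86) in the 1207 cells without a productive call than in the 3207 with one. With shifted chains taken as not productive, that ratio was 7.91 (5.86 to 10.8), over 1419 and 2995 cells. For the other 6 genes the ratios were between 1.95 (Hdgfl3) and 5.47 (Gm266) as deposited, and between 2.03 (Hdgfl3) and 6.06 (Gm266) after that change, which was chosen after seeing the data.

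**Figure D2:**
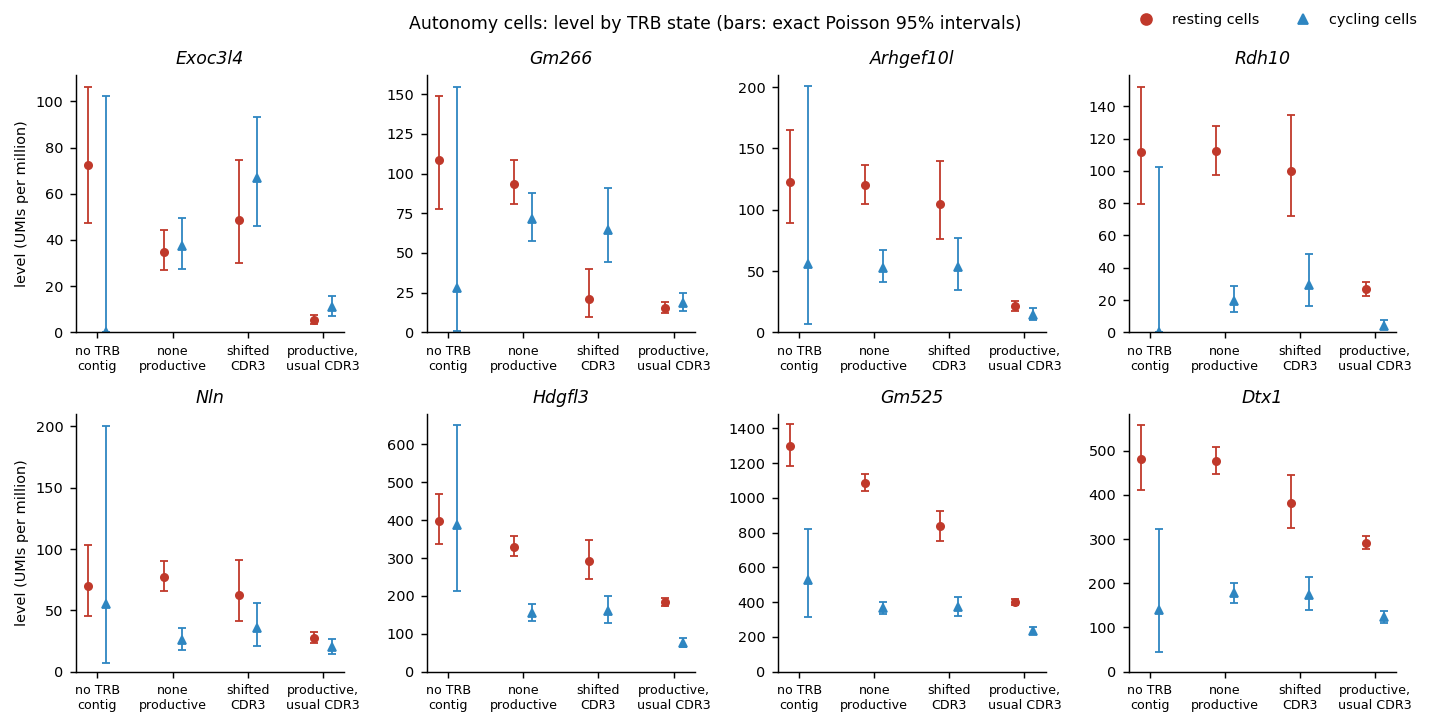
Level of each gene in autonomy cells in CPM by TRB state, with resting cells as red circles and cycling cells as blue triangles, and exact Poisson 95% intervals as bars. In resting cells each of the 7 genes is lowest with a usual productive CDR3. Gm266 with shifted chains lies close to that level in resting cells and above it in cycling cells.

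The autonomy library was then divided by TRB clone, a clone being an exact set of productive TRB chains. Its 3207 cells with a productive TRB chain held 870 chain sets, and 30 clones of at least 20 cells held 1309 cells. Of these clones, 26 had usual CDR3s (1144 cells) and 4 had shifted ones (165 cells). Cells of a clone share a rearrangement and are not replicates. Exoc3l4 had UMIs in 4 of 4 shifted clones, 56 in all, and in 5 of 26 usual clones, 18 in all. Clones 9 and 12 are counted apart here and below, although they carry the same rearrangement. With them joined, 8 clones had an Exoc3l4 UMI, beside 9 with them apart. Clone 20 had 29 Exoc3l4 UMIs in 9 of 27 cells (154 CPM, 103 to 221), and clone 6 had 17 in 11 of 55 cells (44.7 CPM). Clone 12 had 5 UMIs in 4 of 39 cells (55.1 CPM), and clone 9 had 5 in 3 of 44 cells (37.2 CPM). Among usual clones the highest Exoc3l4 level was that of clone 15, at 104.5 CPM, but its 11 UMIs all came from 1 cell, and without clone 15 the usual clones had 7 Exoc3l4 UMIs in 4 clones. In the 4 shifted clones no cell had a Y-linked UMI without Xist, and Xist without Y-linked UMIs was found in 44 of 55 cells of clone 6, 30 of 44 of clone 9, 25 of 39 of clone 12 and 22 of 27 of clone 20, whereas 24 of 34 cells of clone 15 had Y-linked UMIs without Xist. Ptcra-high cells made up 29 of 55 cells in clone 6 and 6 of 27 in clone 20, and the part of class and source animal in these levels was not tested.

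Gm266 was split in another way. It had 27 UMIs in 8 cells of clone 6 (71.0 CPM, 46.8 to 103), 1 UMI in clone 20, and none in clones 9 and 12. Joined as the same rearrangement, clones 9 and 12 had 0 Gm266 UMIs over 83 cells, which allows up to 13.3 CPM by the floor of 3 counts, beside 10 Exoc3l4 UMIs (44.4 CPM). The 26 usual clones had 7 Gm266 UMIs in all. Exoc3l4 and Gm266 lie 52928 bases apart on chromosome 12, and clones 9 and 12 had UMIs of the first and none of the second.

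Arhgef10l was highest in clone 12 (99.1 CPM, 45.3 to 188), clone 9 (89.3 CPM), clone 5 (86.8 CPM, 44.8 to 152) and clone 20 (79.4 CPM), and their intervals overlapped. Of these 4 clones, clone 5 alone had a usual CDR3, and clones 9 and 12 carried the same rearrangement. Arhgef10l had 52 UMIs in the 4 shifted clones and 48 in 11 of the 26 usual ones, and 15 usual clones had none. Rdh10 was highest in clone 20 (84.7 CPM, 48.4 to 138), and its shifted clones ranged from 47.3 to 84.7 CPM around a median of 70.2, beside a median of 15.3 CPM over usual clones. Nln was highest in clone 24, a usual clone, at 132 CPM (63.3 to 243) from 10 UMIs in 5 of 25 cells. Hdgfl3 was detected in 30 of 30 clones, from 53.0 to 283 CPM, with a median of 237 CPM over shifted and 105 CPM over usual clones. Low counts leave most neighbouring clones in these orders indistinguishable, as their intervals overlapped.

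Gm525 had the widest range between clones. It measured 2130 CPM (1898 to 2384) in clone 13, where 305 UMIs lay in 35 of 38 cells. None of the 38 cells was in the Ptcra-high cluster, where Gm525 was highest by class. Clone 5 measured 1164 CPM (991 to 1359), clone 17 measured 1130 CPM, clone 12 measured 1090 CPM, clone 9 measured 997 CPM and clone 20 measured 985 CPM. These 5, among which clones 9 and 12 share a rearrangement, could not be told apart, while clone 13 lay above them beyond counting error. Gm525 then measured 665 CPM in clone 15 and 605 CPM in clone 11, and 102.5 CPM in the shifted clone 6. Clone 19 had no Gm525 UMI in 30 cells, which allows up to 35.1 CPM by that floor. The median was 991 CPM over the 4 shifted clones and 116 CPM over the 26 usual ones, and the highest level was that of a usual clone.

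**Figure D3:**
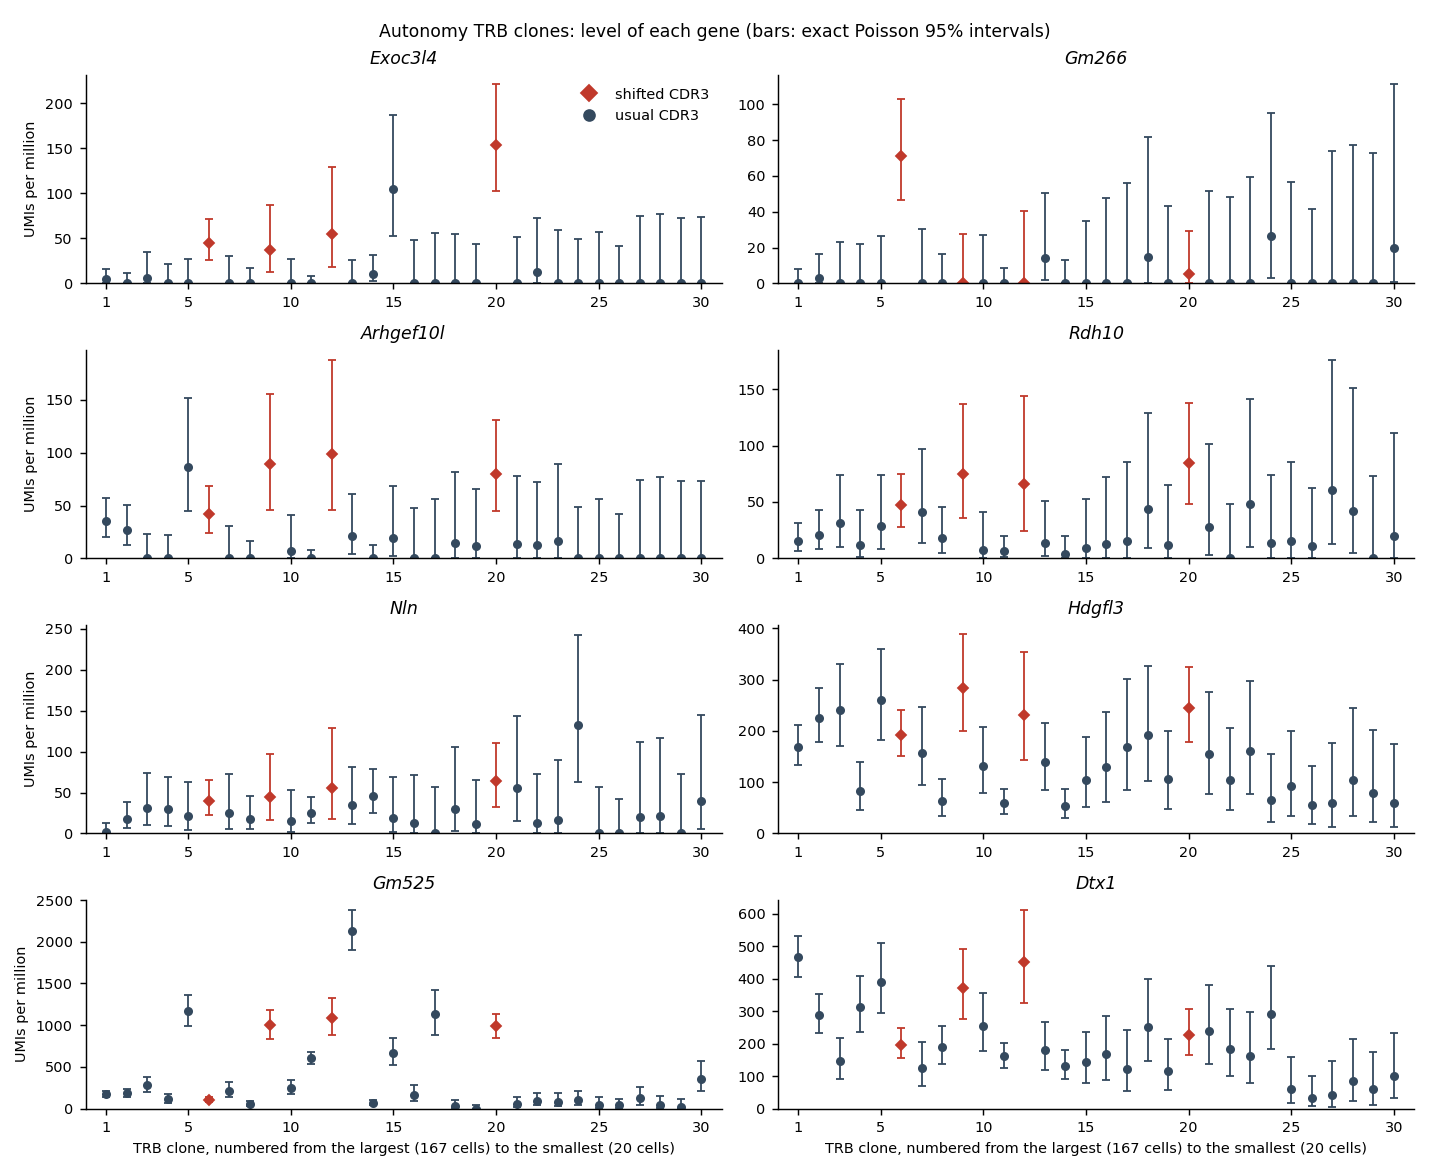
Level of each gene in CPM in the 30 autonomy TRB clones of at least 20 cells, ordered by size, with shifted clones as red diamonds and usual clones as dark circles, and exact Poisson 95% intervals as bars. Exoc3l4 stands high in clones 20 and 15, Gm266 in clone 6 and Gm525 in clone 13.

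Cells that shared an unproductive chain gave the same kind of split. The TRBV4 with TRBJ2-3 chain printed above was found in 180 autonomy cells, of which 171 were resting and 33 also had a productive call. In these cells Exoc3l4 had 1 UMI (2.26 CPM, 0.0572 to 12.6) and Gm266 had 2 UMIs (4.52 CPM, 0.547 to 16.3). The same cells had Arhgef10l at 90.3 CPM (64.5 to 123), Rdh10 at 88.1 CPM, Nln at 61.0 CPM, Hdgfl3 at 260 CPM and Gm525 at 1007 CPM. High Arhgef10l, Rdh10 and Gm525 thus stood beside nearly absent Exoc3l4 and Gm266 in cells that mostly had no productive call. In 22 cells with an unproductive TRBV1 and TRBJ2-7 chain, Exoc3l4 measured 177 CPM (80.9 to 336), Arhgef10l 275 CPM (151 to 462) and Gm525 2005 CPM in 22 of 22 cells, whereas Gm266 had 1 UMI. In 63 cells with an unproductive TRBV15 and TRBJ2-7 chain, 40 of which also had a productive call, Gm266 measured 42.6 CPM (24.4 to 69.2) and Exoc3l4 13.3 CPM (4.32 to 31.1). Cells with these chains differed in sex-linked transcripts, as 64 cells with the TRBV4 chain had Y-linked UMIs alone and 4 Xist alone, 5 with the TRBV1 chain had Y-linked UMIs alone and 0 Xist alone, and 43 with the TRBV15 chain had Xist alone and 0 Y-linked UMIs alone. The part of the source animal in these levels was not tested.

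Sources of cells were compared through sex-linked transcripts. Exoc3l4 measured 19.2 CPM (16.3 to 22.5) in autonomy cells with Xist and no Y-linked UMIs and 11.2 CPM (8.08 to 15.2) in those with Y-linked and no Xist UMIs. Gm266 measured 37.5 CPM (33.4 to 42.0) and 21.4 CPM (16.9 to 26.6) in these cells. In resting cells Gm266 measured 48.0 CPM (40.8 to 56.2) with Xist and 26.7 CPM (19.6 to 35.5) with Y-linked UMIs, while Exoc3l4 measured 18.5 CPM (14.1 to 23.8) and 16.4 CPM (11.02 to 23.6), with intervals that overlapped. Both genes were thus detected in cells of either kind, and within resting cells the intervals were apart for Gm266. Over all autonomy cells Arhgef10l measured 33.1 and 36.6 CPM, and Gm525 360 and 388 CPM. The part of the source animal in these values was not tested.

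Single cells were examined for joint detection, setting the observed number of cells with both genes beside the number expected from each cell's depth. In 3390 resting autonomy cells, 21 of 21 pairs of the 7 genes were found together more often than that number. The ratio of observed to expected cells ranged from 1.14 to 4.59 with a median of 1.69. The same count was not made for pairs of other genes, so this excess is not shown to be particular to the 7. Exoc3l4 and Arhgef10l were found together in 45 cells, against 9.79 expected, a ratio of 4.59. Arhgef10l was thus detected in 46.4% (36.2 to 56.8%) of 97 cells with Exoc3l4 and in 8.05% of cells without it. Exoc3l4 and Nln were found together in 26 cells (a ratio of 2.98), and Gm266 and Arhgef10l in 54 cells (2.94). Exoc3l4 and Gm266, the chromosome 12 neighbours, were found together in 19 cells, against 5.77 expected. Gm266 was detected in 19.6% of resting cells with Exoc3l4 and 4.95% of those without it, so most cells with Exoc3l4 UMIs had none of Gm266 at this depth. Hdgfl3 and Gm525, the most widely detected genes of the 7, had the lowest ratio, 1.14, with 523 joint cells. Dtx1 was detected in 79.0% of resting cells with Arhgef10l and 38.0% of those without it.

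The size of joint detection depended on which cells were pooled. Over all autonomy cells 18 of 21 pairs exceeded the expected number, with a median ratio of 1.26, and after thinning 21 of 21 did, with a median of 1.81. Within the Ptcra-high cluster 18 of 21 pairs did, with a median of 1.16 and a range of 0.845 to 1.67. Within cycling cells 14 of 21 did, with a median of 1.04, and Gm266 with Arhgef10l gave the highest ratio there, 1.82 over 31 cells. Within resting DP-like cells 19 of 21 did, and the ratios ranged from 0.206 to 5.62. The excess was thus smaller within the Ptcra-high and cycling classes than across resting cells, while the median among resting DP-like cells was 1.57.

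**Figure D4:**
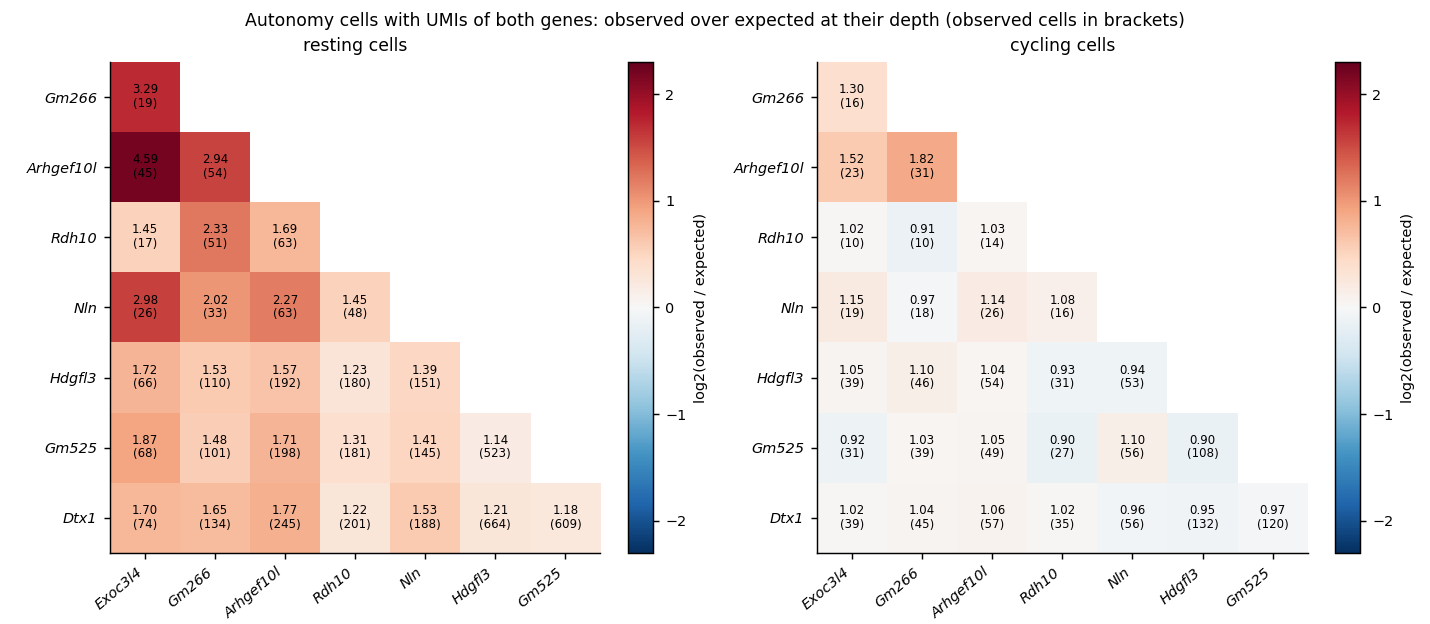
Observed over expected number of autonomy cells with UMIs of both genes, for resting cells (left) and cycling cells (right), with the ratio in each square, the observed cells in brackets and colour on a log2 scale. Ratios in resting cells reach 4.59 for Exoc3l4 with Arhgef10l, while those in cycling cells lie close to 1 apart from pairs among Exoc3l4, Gm266 and Arhgef10l.

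The genes whose level followed each of the 7 most closely were sought among 8695 genes across the 30 clones, by Pearson's r of log2(CPM + 10). The clones share 1 library and differ in depth, so these values are a description. Taking the 3 highest of 8695 values favours a high r by ranking alone, and the r that ranking alone would give was not computed. The 26 usual clones are part of the 30, so their values are not an independent check. Clones 9 and 12, which carry the same rearrangement, entered as separate clones. Exoc3l4 was followed most closely by Bst1 (r = 0.85), an ectoenzyme of NAD metabolism, Heyl (0.85), a transcriptional repressor of the Hes and Hey family, and Mcrip2 (0.72). Over the 26 usual clones alone these values were 0.60, 0.69 and 0.52. Exoc3l4 was, however, at 0 in 21 of 30 clones, and most of its 18 UMIs in usual clones came from 1 cell. Heyl had 102 autonomy UMIs, so few clones carry these values. Arhgef10l was followed by Bst1 (0.77), Mndal (0.69) and Dtx1 itself (0.65), at 0.47, 0.61 and 0.59 over usual clones. Gm266 was followed by Id1 (0.65), an inhibitor of E proteins, Cyp51 (0.60), an enzyme of cholesterol synthesis, and Sapcd1 (0.59), at 0.65, 0.56 and 0.29 over usual clones, but Gm266 was at 0 in 23 of 30 clones. Rdh10 was followed by Papss2 (0.69), which makes the sulfate donor PAPS, Uck2 (0.66) and Krtcap2 (0.64), at 0.74, 0.52 and 0.55 over usual clones. Hdgfl3 was followed by Socs7 (0.67), Socs3 (0.66), an inhibitor of cytokine receptor signalling, and Trappc6a (0.65), at 0.67, 0.61 and 0.67 over usual clones, and Dtx1 ranked 8th (0.59). Nln was followed by Bzw2 (0.68), Neil1 (0.67) and Fam173a (0.67), at 0.66, 0.68 and 0.66 over usual clones. Gm525 was followed by Ost4 (0.61), Pbdc1 (0.61) and Slco4a1 (0.60), at 0.61, 0.57 and 0.56 over usual clones. For the other genes Dtx1 ranked far lower, 981st for Exoc3l4 (0.28), 1886th for Gm266 (0.13) and 1554th for Rdh10 (0.21). Over usual clones these values were 0.03, 0.19 and -0.01. For Nln Dtx1 ranked 118th (0.48) and for Gm525 216th (0.41). Among the 7 themselves, Arhgef10l and Hdgfl3 varied together most, with r = 0.75 over 30 clones and 0.64 over the usual ones. Exoc3l4 and Arhgef10l gave 0.62 over 30 clones and 0.19 over the usual ones, and Exoc3l4 and Gm266 gave 0.15 and -0.17.

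The surroundings of the genes were read from the RefSeq annotation of GRCm38.p6, the build named mm10 in the processing notes. Exoc3l4 lies on chromosome 12 from 111417430 to 111431680, and Gm266 on the same chromosome from 111484609 to 111485823, with 52928 bases between them. Tnfaip2, which lies between them and is related to the exocyst, had 5 UMIs in autonomy and 0 in turnover, and Lbhd2 on the other side of Exoc3l4 had 2 and 1. Beyond Gm266, the translation factor gene Eif5 measured 374 CPM in autonomy and 264 CPM in turnover (ratio 1.42), and the kinase gene Mark3 gave a ratio of 1.68. The large ratios on chromosome 12 thus stood in 2 genes that flank the barely detected Tnfaip2.

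Arhgef10l lies on chromosome 4 from 140514485 to 140666007, and its neighbours Rcc2 and Padi4 gave ratios of 1.04 and 1.19. Rdh10 lies on chromosome 1 from 16105882 to 16132550, and Rpl7 beside it gave 0.706. Nln lies on chromosome 13 from 104023050 to 104109673, and Trappc13, Trim23 and Ppwd1 gave ratios between 0.892 and 0.964. Hdgfl3 lies on chromosome 7 from 81881256 to 81934459 and overlaps Tm6sf1, which had 3273 UMIs in autonomy and 1140 in turnover (ratio 3.54). Whether counting used strand was not given in the sources used here, so reads from the overlap of Hdgfl3 and Tm6sf1 cannot be told apart. Btbd1, next on that side, gave 3.20, while 3110040N11Rik beyond it gave 0.857. Gm525 lies on chromosome 11 from 89073841 to 89093064, and Trim25 gave a ratio of 2.18, Dgke 1.31 and Coil 1.13. Of 22 protein-coding neighbours within 100 kb in the table, 14 had at least 100 UMIs, and 3 of those were at least 2-fold higher in autonomy (2 with TMM scaling by edgeR) and 0 at least 2-fold lower. Over all 9913 genes 14.3% were at least 2-fold higher (7.60% with TMM) and 2.65% at least 2-fold lower, so the count of neighbours lay near that of all genes.

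RefSeq promoter sequences were matched to 6 of the 7 genes (not Rdh10), each covering 250 bases before to 50 after the start. The promoters of the chromosome 12 pair are printed because those genes had no turnover UMI. Both are in GRCm38.p6, 5′ to 3′ on the gene's own strand, and capitals mark TGGGAA, the core of sites bound by the Notch partner RBPJ, searched on both strands.
Exoc3l4, chr12:111417180-111417479, plus strand: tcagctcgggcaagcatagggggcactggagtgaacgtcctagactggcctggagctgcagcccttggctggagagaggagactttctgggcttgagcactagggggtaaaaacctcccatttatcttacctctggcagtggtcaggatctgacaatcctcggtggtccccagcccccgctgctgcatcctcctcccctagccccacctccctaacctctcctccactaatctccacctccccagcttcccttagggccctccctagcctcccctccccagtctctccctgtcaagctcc
Gm266, chr12:111485774-111486073, minus strand: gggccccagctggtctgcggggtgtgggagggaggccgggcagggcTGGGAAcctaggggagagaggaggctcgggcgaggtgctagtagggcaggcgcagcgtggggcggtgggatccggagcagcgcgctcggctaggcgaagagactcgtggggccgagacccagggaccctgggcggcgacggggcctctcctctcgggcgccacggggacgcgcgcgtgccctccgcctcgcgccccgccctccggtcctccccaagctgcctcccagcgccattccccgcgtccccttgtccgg
TGGGAA was found in 1 of the 6 genes, Gm266, 204 bases before its start, and in 8397 of 32851 promoters of the same length (25.6%). Exoc3l4 had no match in this window, and neither had the Notch target Dtx1, whose promoter was searched in the same way. A match is a run of letters and not a measured binding site.

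Gene families of the 7 were read from lists of related genes, beside a median log2 ratio of 0.29 over all 9913 genes. TMM scaling lowered each log2 ratio by 0.29 and brought that median to -0.01. Counts on the lists stand beside 14.3% of all genes at least 2-fold higher (7.60% with TMM) and 2.65% at least 2-fold lower (5.33% with TMM). Among 9 measured genes of the exocyst list, 0 passed 2-fold in either direction, with a median log2 ratio of 0.10. Exoc4 gave a ratio of 1.08, Exoc5 1.54 and Exoc3, the subunit Exoc3l4 is named after, 0.998.

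Among 6 measured genes of the retinoid list, 1 was at least 2-fold higher, the retinoic acid receptor gene Rara, at 71.8 CPM in autonomy and 22.3 CPM in turnover (3.22). Dhrs3 and Rdh14, which act on retinal and retinol, gave ratios of 1.04 and 1.45. Aldh1a1 and Aldh1a2, named after their values were seen and known to make retinoic acid from the product of Rdh10, had 0 UMIs in both libraries, and Aldh1a3 had 7 in autonomy and 15 in turnover. Among 8 measured peptidase genes, Prep gave 2.13 (1.73 with TMM), Npepps 1.52 and Lnpep 1.31, and 1 gene, Ide, was at least 2-fold lower (0.498). Among 3 measured genes of the HDGF family, Psip1 gave 1.26, Hdgfl2 1.34 and Hdgf 1.09. On the Notch list, 9 of 13 measured genes were at least 2-fold higher (6 with TMM), among them Ptcra (3.51), Notch1 (2.78) and Dtx1 (67.1). The Notch list was chosen with results of these libraries known, and its count is not independent evidence of a direction.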

How the data were processed

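The deposited gene expression tables held whole-number counts of unique molecules (UMIs) per gene and barcode, made by the authors with Cell Ranger 3.0.2 on mm10 per the submitters' processing notes, which also name Seurat 3.1.3.9002. The V(D)J tables gave contigs with segment calls, productive calls and UMI counts as deposited. The annotation, the reference for V(D)J segments and how cells were called are not given in the sources used here. No rows other than genes entered the library totals.

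The 7 genes, the gene lists and the comparisons were chosen with earlier results of these data known. The named genes are the 7, Dtx1, the 3 most similar genes per member across clones, annotated neighbours within 100 kb and up to 3 genes per list with most UMIs. A gene list and 1 marker gene are not reported here. Barcodes with at least 1000 UMIs were kept, leaving 16260384 UMIs in autonomy and 20057936 in turnover. UMIs were summed per library, class or clone and divided by the total (CPM). Counts carry exact Poisson, shares exact Clopper-Pearson and ratios conditional exact binomial 95% intervals, and a floor is 3 counts. With 1 library per condition no test was run. UMIs collapse PCR copies, and intervals and floors cover counting error only.

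Clusters came from 2000 variable genes without the 7, Dtx1, TCR segment, sex-linked, cell cycle, mitochondrial and ribosomal protein genes, centred per library, by Leiden clustering (resolution 1) of a graph of 15 neighbours in 30 components. CPM thresholds that name the classes were set after seeing the data. No doublet caller was run, and leaving out the 4% of barcodes with most UMIs was tried instead. Expected joint detection was summed over cells from depth-based detection probabilities. CDR3 starts were compared with the usual V segment start, a check added after seeing the data. Sequences and positions came from RefSeq tables of GRCm38.p6. The summing and interval code was tested on simulated data. The tools were edgeR 4.0.16 for TMM factors in R 4.3.3, and leidenalg 0.10.2, igraph 0.11.9, scikit-learn 1.9.0, scipy 1.17.1, numpy 2.4.6, pandas 2.3.3 and matplotlib 3.10.9 in Python 3.11.15.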

Additional observations from a re-analysis of the deposited data

How the results depend on the processing

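The 7 genes stayed higher in autonomy under the 10 alternatives tried for each ratio, and the median ratio of 14.2 ranged from 11.6 with edgeR TMM factors to 17.7 with each cell thinned to 1000 UMIs. The ratio or bound ranged from 10.5 to 108 for Exoc3l4, 42.5 to 213 for Gm266, 30.5 to 106 for Arhgef10l, 11.6 to 17.7 for Rdh10, 4.92 to 11.6 for Nln, 7.73 to 16.4 for Hdgfl3 and 4.35 to 6.99 for Gm525. Exoc3l4 and Gm266 had no turnover UMI under any alternative, so their values are bounds that move with autonomy counts and library totals. The 106 of Arhgef10l, in resting cells, is likewise a bound. All 7 were at least 2-fold higher as reported, 6 after thinning and 6 in resting DP-like cells (Exoc3l4 fell under 100 UMIs in both) and 5 in cells with Y-linked and no Xist UMIs (Exoc3l4 and Gm266 fell under it). Over all genes, 1418 were at least 2-fold higher as reported, 753 with TMM, 688 after thinning, 773 in resting cells, 709 in resting DP-like cells and 2764 without a count minimum. The share of autonomy cells with a UMI of any of the 7 was 40.3% after thinning, 62.8% in resting cells and 57.8% in resting DP-like cells, beside 7.95%, 16.3% and 16.3% of turnover cells. Clones with an Exoc3l4 UMI numbered 9 as reported and 8 with clones 9 and 12 joined. They numbered 4 after thinning and 5 without the shifted clones, since fewer UMIs or clones enter. Clones with a Gm266 UMI numbered 7 as reported, 13 when a clone was its chain with most UMIs and 3 after thinning. The cause of the other changes was not tested. The resting-cell, resting DP-like, cycling-cell, joined-clone and shifted-clone alternatives, and TMM scaling of lists and neighbours, were chosen after seeing the data. No paired analysis was possible because each condition had 1 library, and for the same reason no replicate could be left out.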
